A study of Homo sapiens and Mus musculus with 36 samples.

Results

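The response of 2 human liver cancer cell lines, HepG2 and Huh7, to MS7126 was compared gene by gene. MS7126 is labelled as a PROTAC against EZH2, a molecule built to bring its target protein to the cell's degradation machinery. For each gene the log2 fold change of MS7126 over DMSO in Huh7 was subtracted from that in HepG2, so a difference above 0 means a more positive response in HepG2. Genes entered when their mean was at least 10 normalized counts in both of the authors' deposited tables, which left 13150 of the 21730 genes listed in either table. The genes of interest were those that responded in 1 line and those that moved in opposite directions.

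Each line had 2 DMSO libraries and 2 MS7126 libraries, 8 of the 36 libraries of the series. HepG2 cells, kept in RPMI1640 medium, received 5 uM MS7126 or DMSO for 48 h. Huh7 cells, kept in DMEM, were given the same dose or DMSO, and their label states 24 h, while a label on other samples of the series gives 48 h for both lines. Line, medium and, where it differed, time cannot be told apart in any difference given here. Nothing in the labels says whether the libraries came from separate cultures, so the errors may cover technical spread alone. RNA came from whole cultures, in which fewer cells of a type and less RNA per cell cannot be told apart. Of the compounds given to HepG2 alone at the same dose and time, C24 is the inhibitor matched to MS7126, and MS7126N1 and MS7126N2 are analogs without degrading activity.

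EZH2 is the catalytic subunit of Polycomb repressive complex 2 (PRC2), which methylates histone H3 at lysine 27 and keeps target genes silent. Several inducible programs of liver cells recur below. NRF2 switches on antioxidant and iron storage genes once KEAP1 releases it, ATF4 drives amino acid supply genes when translation is restrained, SREBP2 drives cholesterol genes, ATF6 and XBP1 drive chaperones of the endoplasmic reticulum (ER), HSF1 drives heat shock chaperones, and YAP with TEAD factors drives matrix and growth genes.

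The values of each line come from the authors' deposited table of that line: the mean in normalized counts, the log2 fold change with its standard error (SE), and the DESeq2 adjusted p. Values per library were not analysed here, so group levels were rebuilt from each table's mean and fold change, without an error of their own. Levels are on each table's own scale and are not compared between lines. The summed means were 16788277 normalized counts in HepG2 and 20947170 in Huh7, of which mitochondrially encoded genes took 31.5% and 4.37%. The median SE of a log2 fold change was 0.308 in HepG2 and 0.216 in Huh7, so smaller responses could be called in Huh7. Hepatocyte genes such as ALB and APOA1 were abundant in both lines, all 9 hepatocyte markers were listed in both tables, and their summed level went from 235342 to 114453 normalized counts in HepG2 and from 597709 to 343266 in Huh7. The 4 blood cell markers summed to 59.0 normalized counts in HepG2 DMSO and, with 2 of the 4 listed, to 485 in Huh7 DMSO, the latter nearly all CD14. Both tables had the same orientation: DMSO levels rebuilt from the HepG2 MS7126 and C24 tables, which share libraries, had an interquartile range of log2 ratios of 0.037 as deposited and 1.67 with the sign turned. For Huh7, set against the control of a separate knockdown table, the ranges were 0.50 and 1.35.

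MS7126 altered more genes in Huh7 than could be called in HepG2, and most genes called in both lines moved the same way. At an adjusted p under 0.05 in the authors' deposited tables, 1921 of the 13150 genes (14.6%) were called in HepG2, 927 higher (7.05%) and 994 lower (7.56%). In Huh7 4997 genes (38%) were called, 2556 higher (19.4%) and 2441 lower (18.6%). Of the 1250 genes called in both lines, 1183 moved in the same direction. The difference between the lines was tested with a two-sided normal test on the 2 log2 fold changes and their SEs, with Benjamini-Hochberg adjustment over all 13150 genes. It was called for 992 genes (7.54%), 535 above 0 (4.07%) and 457 below 0 (3.48%), and 628 of the 992 differed at least 2-fold. With a t distribution on 2 degrees of freedom per table, in place of the normal, no difference was called (smallest adjusted p 0.692), although 935 genes had an unadjusted p under 0.05. In alternatives chosen after seeing the data, each analog took the place of DMSO as the HepG2 reference, which adds the error of another table. Huh7 kept DMSO as its reference. The HepG2 tables share DMSO libraries, so their summed error is too large. A call lost this way therefore does not by itself show a smaller difference. Of the 165 genes named by rule, 76 were no longer called with MS7126N1 and 2 changed sign, and 100 and 3 did so with MS7126N2. The call held with both analogs for 53, and the genes that lost it are given where they are described.

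Only 67 genes (0.51%) were called in both lines in opposite directions, 41 of them higher in HepG2 and 26 lower, and the difference was called for all 67. A further 164 genes responded in HepG2 alone, meaning that they were called in HepG2, not called in Huh7, and had the difference called (105 higher, 59 lower). The same definition gave 593 genes that responded in Huh7 alone (287 higher, 306 lower). Another 140 genes moved the same way in both lines by different amounts, more in HepG2 for 59 and more in Huh7 for 81. By contrast, 507 genes called in HepG2 and 3154 called in Huh7 missed the call in the other line without a called difference, so a call in 1 line is not counted here as a response of that line alone. The filter left out 83 HepG2 calls and 406 Huh7 calls, 40 and 206 of them because the other table did not list the gene. ANGPTL8, a liver-secreted regulator of lipoprotein lipase, was one of these, with 3.33 (SE 0.29) in HepG2 and a mean of 4.47 normalized counts in Huh7. Just outside the filter lay SLC3A1 (lower mean 9.997), and just inside lay RP11-144L1.8 (10.01).

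**Figure D1:**
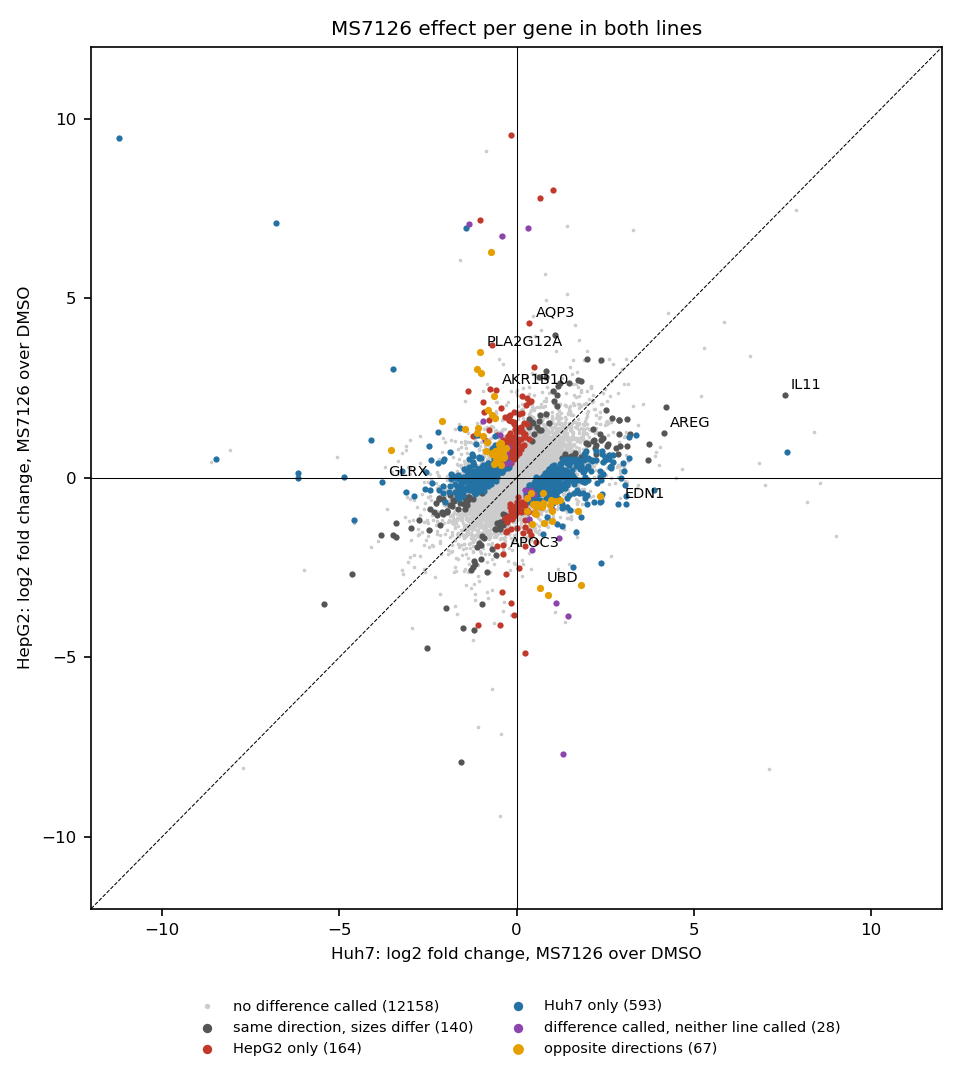
Each point is 1 of the 13150 genes, with the log2 fold change of MS7126 over DMSO in Huh7 on the x axis and in HepG2 on the y axis. The dashed line marks equal responses, and colours mark the classes, among them 67 genes called in opposite directions, which lie in the upper left and the lower right.

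EZH2 transcript (chr7:148807383-148884321 in GENCODE 29, GRCh38) fell in Huh7 and was not called in HepG2, with no called difference. It went from 275 to 226 normalized counts in HepG2, with -0.29 (SE 0.27, adjusted p = 0.58) on the log2 scale, and from 1790.1 to 1305 in Huh7, with -0.46 (SE 0.13, adjusted p = 0.00194). The difference was 0.17 (SE 0.30, adjusted p = 0.867), with a 95% interval of -0.42 to 0.76. A degrader acts on the protein, so transcript levels do not check its action. Of 23 subunits of PRC2 and of its partner complex PRC1, 7 were called in HepG2 and 14 in Huh7. By the normal test the difference was called for 0 of 23, beside 7.54% of all genes. At an unadjusted p under 0.05 by that test were 3 of the 23, beside 2510 of all 13150 genes. The t distribution called 0 of all genes, so it cannot set these subunits apart. Among the core subunits EED, which binds the methylated histone, fell in Huh7 with -1.67 (SE 0.42), against -0.02 (SE 0.54) in HepG2, and its difference was 1.66 (SE 0.69, adjusted p = 0.132). Of 10 measured genes described elsewhere as PRC2-repressed, the difference was called above 0 for IGFBP3 and DKK1 and below 0 for BMP4. That is 30%, beside 7.54% of all genes, and by sign alone 6 of the 10 lay above 0. The call for IGFBP3 was lost with either analog as the HepG2 reference. BMP4, a secreted growth factor, rose in Huh7 from 198 to 851 normalized counts and in HepG2 went from 3004 to 3448.

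Most targets of NRF2 rose in HepG2 and most fell in Huh7, and their median difference was the highest among the lists plotted. Of 29 members compared, 17 rose and 2 fell in HepG2, while 5 rose and 16 fell in Huh7. The median log2 fold change was 0.68 in HepG2 and -0.51 in Huh7, beside 0.02 and -0.01 over all genes compared. The difference was above 0 in all 29 members, with a median of 0.82 beside 0.02 over all genes. It was called in 17 (58.6%, beside 7.54% of all genes), and 6 members were called in opposite directions (beside 0.51% of all genes). The list was chosen with earlier results of these data known, so its direction is a description.

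Among the enzymes, AKR1C1 and AKR1C2, which reduce carbonyl compounds and steroids, showed the widest separation of the members called in both lines. AKR1C1 went from 3462 to 12894 normalized counts in HepG2 and from 3967 to 2286 in Huh7. Its log2 fold change was 1.90 (SE 0.18) and -0.80 (SE 0.13), a difference of 2.69 (SE 0.23, adjusted p = 5.95e-29). AKR1C2 followed with 1.66 (SE 0.18) and -0.61 (SE 0.14), a difference of 2.27 (SE 0.23, adjusted p = 3.26e-19). The 2 genes are near-identical copies, and how reads were split between them is not known, so they may not be separate observations. AKR1B10, a related reductase often raised in liver cancer, rose from 202 to 1095 in HepG2 with 2.44 (SE 0.29), while Huh7 had -0.59 (SE 0.25, adjusted p = 0.0556). Its difference was 3.03 (SE 0.38, adjusted p = 9.92e-13). NQO1, a quinone reductase, rose in HepG2 from 5465 to 9473 and fell in Huh7 from 974 to 686, a difference of 1.30 (SE 0.21, adjusted p = 7.23e-08).

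Of the thiol and glutathione members, SRXN1 rose in HepG2 alone, TXNRD1 rose more in HepG2, and GCLC rose in both with no called difference. In a separate list of 23 glutathione and peroxide enzymes, 11 fell in HepG2 and 19 in Huh7, and the difference was called for 2 (8.70%, beside 7.54% of all genes). SRXN1 (sulfiredoxin), which repairs oxidized peroxiredoxins, rose from 676 to 2761 in HepG2 with 2.03 (SE 0.15), and Huh7 had 0.26 (SE 0.11, adjusted p = 0.0601). TXNRD1, the cytosolic thioredoxin reductase, rose in both lines, with 1.63 (SE 0.18) and 0.35 (SE 0.14). GCLM, the modifier subunit of the first enzyme of glutathione synthesis, rose in HepG2 with 0.98 (SE 0.18) and fell in Huh7 with -0.44 (SE 0.12). Its catalytic partner GCLC rose in both, with 2.51 (SE 0.61) and 2.10 (SE 0.64), and its difference was 0.41 (SE 0.89, adjusted p = 0.898). GSR, which recycles glutathione, fell in Huh7 with -0.66 (SE 0.11) and had 0.29 (SE 0.18) in HepG2. SLC7A11, the cystine importer shared with the ATF4 program, rose in both and more in HepG2, with 2.70 (SE 0.20) and 1.83 (SE 0.17).

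Iron storage moved with them. FTH1, the ferritin heavy chain, went from 22013 to 36476 normalized counts in HepG2 and from 109501 to 83933 in Huh7, log2 fold changes of 0.73 (SE 0.16) and -0.38 (SE 0.10). FTL, the light chain, had 0.39 (SE 0.14) and -0.65 (SE 0.13). Both genes have many processed pseudogenes, so their counts are uncertain. HMOX1, the heme-degrading enzyme and a classical NRF2 target, did not follow: it fell in both lines, with -0.62 (SE 0.20) and -1.44 (SE 0.19). Of the regulators, NFE2L2 (NRF2) transcript rose in both, with 0.68 (SE 0.13) and 0.37 (SE 0.11), and its difference was 0.32 (SE 0.17, adjusted p = 0.308). KEAP1 was called in neither line, with 0.39 (SE 0.15) and -0.32 (SE 0.15), but its difference was 0.71 (SE 0.22, adjusted p = 0.0185). SQSTM1 (p62), the autophagy adaptor that binds KEAP1, rose in HepG2 with 0.70 (SE 0.24) and fell in Huh7 with -0.57 (SE 0.11), a difference of 1.26 (SE 0.27, adjusted p = 0.000145). Against the same HepG2 DMSO libraries the median of the 29 members was 0.23 for C24 and -0.05 for MS7126N1. For C24 8 were called higher, beside 242 of 13140 over all genes. For MS7126N1 0 of the 29 were called in the authors' deposited table by DESeq2 (0 at an unadjusted p under 0.05). Over all 13133 genes MS7126N1 had 10 called higher and 14 lower, and 363 at an unadjusted p under 0.05. A count of 0 in 29 therefore says little about these members. MS7126N2 gave a median of 0.17 and 3 members called higher, beside 50 of 13144 over all genes. Among the 3 were AKR1B10 with 1.25 (SE 0.27) and AKR1C1 with 0.69 (SE 0.19). As the HepG2 reference, MS7126N1 left the difference called in 14 of the 29 and MS7126N2 in 9, all above 0. Lost with both were SLC7A11, HMOX1 and KEAP1, and TXNRD1 and GSR were lost with MS7126N2.

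**Figure D2:**
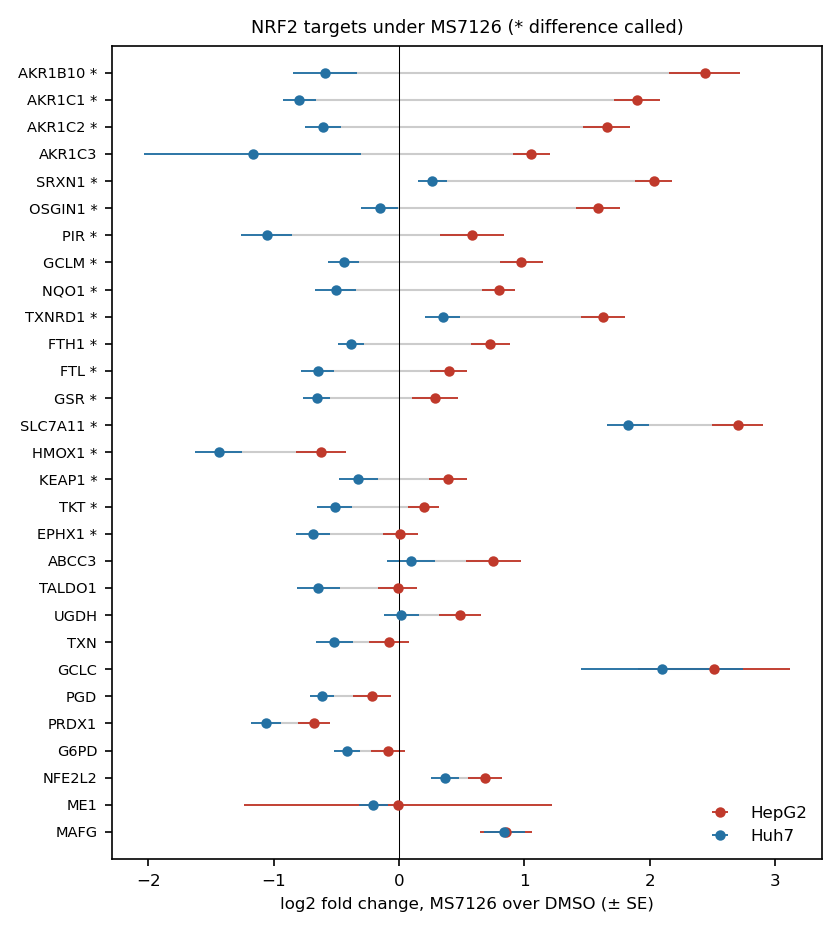
Log2 fold changes of MS7126 over DMSO with their SE for the 29 NRF2 targets compared, HepG2 in red and Huh7 in blue, ordered by difference. The HepG2 point lies to the right of the Huh7 point in all 29, and asterisks mark the 17 with the difference called.

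RefSeq promoter sequences (GRCh38.p14, 250 bases before the gene's start) were matched by symbol for 16 of the 29 NRF2 targets. The antioxidant response element core that NRF2 recognizes, TGACNNNGC on either strand, lay in 3 of the 16 (GCLM, PGD and ME1) and in 11.1% of all 22114 promoters. GCLM, called in opposite directions in the lines, is shown at chr1:93909431-93909504, minus strand, 5′ to 3′ along the gene, with the match in capitals, which lies on the opposite strand and starts 34 bases before the gene.
GCLM: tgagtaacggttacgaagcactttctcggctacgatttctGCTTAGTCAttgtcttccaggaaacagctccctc
The match describes the letters of this window, and its absence from other windows says nothing about NRF2.

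**Figure D3:**
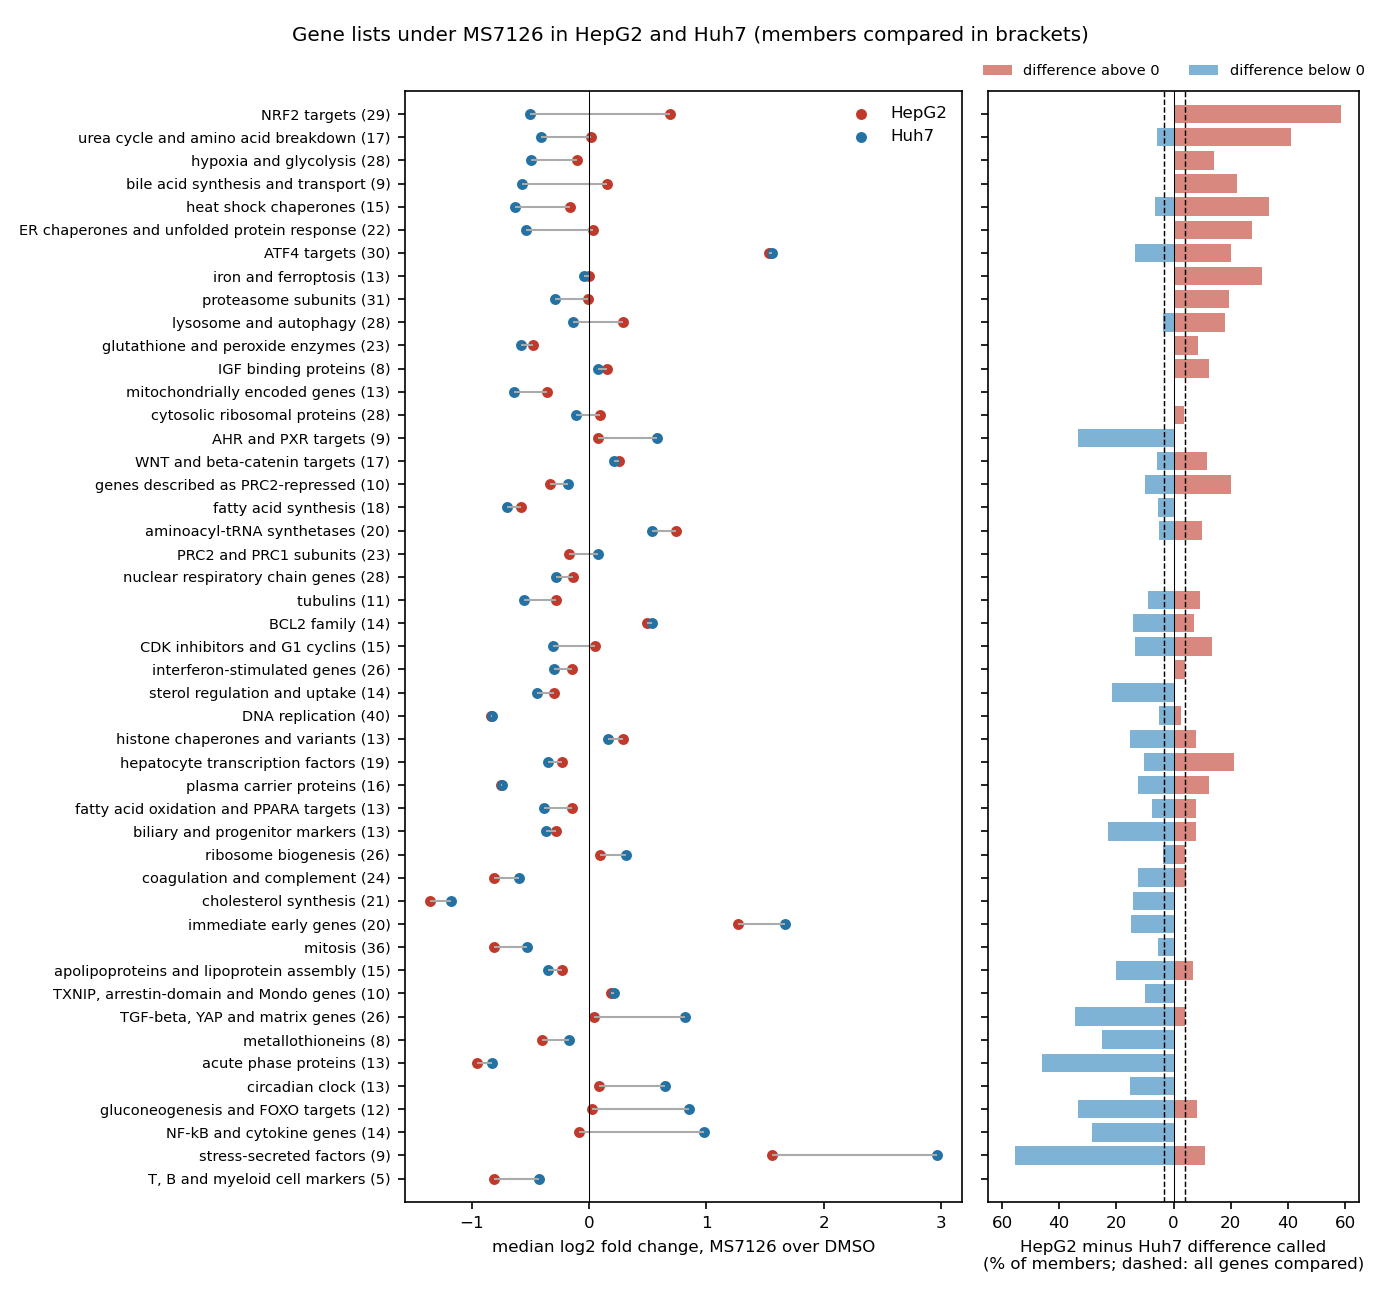
Left, median log2 fold change of MS7126 over DMSO for gene lists with at least 5 members compared, HepG2 in red and Huh7 in blue; right, percent of members whose difference was called above 0 (red, to the right) or below 0 (blue, to the left), with dashed lines for all 13150 genes (4.07% and 3.48%). NRF2 targets stand at the top, with 17 of 29 called above 0, and stress-secreted factors, cytokine and matrix genes stand near the bottom.

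Cholesterol genes fell in both lines, and the synthesis enzymes with a called difference fell further in HepG2. Of 21 enzymes of cholesterol synthesis, 19 fell in HepG2 and 21 in Huh7, with medians of -1.35 and -1.18. The difference was called for 3 (14.3%, beside 7.54% of all genes), all below 0. SQLE, which adds oxygen to squalene, and ACAT2, which makes acetoacetyl-CoA, had differences of -0.80 and -0.79. SREBF2, which encodes SREBP2, fell in both, with -1.01 (SE 0.17) and -0.39 (SE 0.12). Its difference of -0.62 (SE 0.20, adjusted p = 0.0369) was lost when SEs were raised to the running median at that mean (adjusted p = 0.0781), and the analogs as reference gave adjusted p of 0.21 (MS7126N1) and 0.91 (MS7126N2). The calls for SQLE and ACAT2 were lost with MS7126N2.

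SCD, the fatty acid desaturase, and FABP1, the liver fatty acid binding protein, fell further in HepG2, with differences of -0.76 and -1.25, the former lost with MS7126N2 as the HepG2 reference. The sterol regulatory element, TCACNCCAC on either strand, lay in 0 of the 12 synthesis genes matched to RefSeq and in 0.891% of all promoters. The promoter of SREBF2 held 1, shown at chr22:41832932-41833020, plus strand, with the match in capitals, because the factor it encodes binds such letters.
SREBF2: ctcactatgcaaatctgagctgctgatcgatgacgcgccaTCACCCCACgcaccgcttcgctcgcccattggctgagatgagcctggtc

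ATF4 targets rose in both lines to nearly the same median, but gene by gene most members had a more positive response in HepG2. Of 30 members, 27 rose in HepG2, and 27 rose and 1 fell in Huh7, with medians of 1.53 and 1.56. The difference was called for 10 (33.3%, beside 7.54% of all genes), above 0 for 6 and below 0 for 4. By sign alone it was above 0 in 23 of the 30, with a median of 0.44 beside 0.02 over all genes. Larger in Huh7 were STC2, a secreted stress glycoprotein, and GDF15, a stress hormone. STC2 rose from 734 to 1419 in HepG2 and from 117 to 1569 in Huh7, log2 fold changes of 0.95 (SE 0.17) and 3.74 (SE 0.22). GDF15 had 1.67 (SE 0.13) and 2.69 (SE 0.12), and ATF4 itself 0.70 (SE 0.12) and 1.64 (SE 0.11). Larger in HepG2 were TRIB3, a pseudokinase that restrains ATF4 signalling, with 2.71 (SE 0.14) and 1.72 (SE 0.11), and DDIT3 (CHOP), a pro-death factor, with 2.63 (SE 0.30) and 1.22 (SE 0.26). ASNS, which makes asparagine, had 3.29 (SE 0.17) and 2.39 (SE 0.15). PSPH, the last step of serine synthesis, rose in HepG2 with 0.55 (SE 0.20) and fell in Huh7 with -0.39 (SE 0.10). In HepG2 MS7126N2 gave the list a median of 0.75 against the same DMSO libraries as MS7126. It had 12 of the 30 called higher, beside 50 of 13144 over all genes. C24 gave 0.22 (3 of 29 higher, beside 242 of 13140) and MS7126N1 -0.005 (0 of 29, beside 10 of 13133). With MS7126N2 as the HepG2 reference the difference of TRIB3 was -0.014. The calls for DDIT3 and PSPH were lost with both analogs. That for ASNS was lost with MS7126N1, and with MS7126N2 its difference was called below 0 (adjusted p = 0.0325, normal test).

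Many chaperones of the ER and of the cytosol fell in Huh7. Fewer of them were called in HepG2, as over all genes (38% called in Huh7 and 14.6% in HepG2). Of 22 ER chaperone and unfolded protein response genes, 12 fell and 3 rose in Huh7, against 3 and 3 in HepG2. The difference was above 0 in all 6 members called (27.3%, beside 7.54% of all genes). SDF2L1, a partner of the chaperone BiP, fell further in Huh7, from 978 to 215, -2.18 (SE 0.23), than in HepG2, from 849 to 577, -0.56 (SE 0.18). HYOU1, an ER exchange factor, fell in Huh7 with -0.99 (SE 0.17) and had 0.17 (SE 0.19, adjusted p = 0.643) in HepG2. HSPA5 (BiP), the main ER chaperone, went from 20895 to 10719 in Huh7 with -0.96 (SE 0.11) and from 13419 to 10777 in HepG2 with -0.32 (SE 0.14, adjusted p = 0.103), a difference of 0.65 (SE 0.18, adjusted p = 0.00706). ATF6, an ER stress sensor, rose in both lines, with 1.07 (SE 0.22) and 1.32 (SE 0.15). With either analog as the HepG2 reference 2 of the 6 were called, SDF2L1 and HYOU1.

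Of 15 heat shock chaperones, 10 fell and 1 rose in Huh7, and 5 fell and 1 rose in HepG2. The difference was called above 0 for 5 (HSPA1A, HSPA1B, DNAJA1, HSPH1 and DNAJB1) and below 0 for HSPB1. That is 40% of the list, beside 7.54% of all genes, and by sign alone 14 of the 15 lay above 0. HSPA1A, the inducible HSP70, went from 3627 to 865 in Huh7 and from 2761 to 1847 in HepG2, log2 fold changes of -2.07 (SE 0.13) and -0.58 (SE 0.14). HSPA1B, a near-identical copy with which it can share reads, had -2.07 (SE 0.18) in Huh7 and -0.23 (SE 0.17) in HepG2. DNAJA1, an HSP70 partner, fell in Huh7 with -0.99 (SE 0.11) and had -0.19 (SE 0.17) in HepG2. HSPB1, the small heat shock protein HSP27, went the other way: it fell in HepG2 with -0.80 (SE 0.16) and had -0.12 (SE 0.14) in Huh7. With the analogs as reference HSPA1A and HSPA1B were called with both, DNAJA1 with MS7126N1, and HSPH1, DNAJB1 and HSPB1 with neither. HSF1 transcript rose in both, with 0.57 (SE 0.19) and 0.34 (SE 0.12).

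A pair of facing heat shock elements, GAANNTTC, which reads the same on both strands in its fixed letters, lay in 5 of the 8 matched heat shock members and in 6.01% of all promoters. The ER stress response element, CCAAT and CCACG separated by 9 bases, lay in 4 of 17 matched ER members (HSPA5, HSP90B1, CALR and CRELD2) and in 0.0859% of all promoters. Shown with the matches in capitals are 3 genes with a called difference, so that the near-identity of the HSP70 pair can be seen: HSPA5 at chr9:125241351-125241449, minus strand, HSPA1A at chr6:31815397-31815484 and HSPA1B at chr6:31827593-31827680, both plus strand.
HSPA5: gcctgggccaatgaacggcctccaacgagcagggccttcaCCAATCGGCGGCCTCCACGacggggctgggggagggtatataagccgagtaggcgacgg
HSPA1A: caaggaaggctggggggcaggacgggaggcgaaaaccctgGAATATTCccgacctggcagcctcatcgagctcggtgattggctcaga
HSPA1B: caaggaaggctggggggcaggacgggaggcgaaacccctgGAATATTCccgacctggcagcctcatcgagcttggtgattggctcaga
CALR and HSP90B1, which hold the ER element too, fell by similar amounts in both lines, with -0.92 (SE 0.13) and -0.88 (SE 0.11) for CALR.

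Matrix, YAP and TGF-beta genes rose in Huh7 and much less in HepG2. Of 26 members, 14 rose and 1 fell in Huh7, while 8 rose and 5 fell in HepG2, with medians of 0.82 and 0.04. The difference was called below 0 for 9 members and above 0 for 1 (38.5%, beside 7.54% of all genes). By sign alone it was above 0 in 6 of the 26. The YAP targets CYR61 (now CCN1) and CTGF (now CCN2), secreted matrix signalling proteins, had 2.86 (SE 0.10) and 2.25 (SE 0.09) in Huh7 and 0.68 (SE 0.20) and 0.67 (SE 0.24) in HepG2. ANKRD1, a nuclear cofactor, had 2.92 (SE 0.12) and 0.89 (SE 0.16). These 3 genes rose in both lines, and their differences ran from -1.58 to -2.19, all called, also with either analog as the HepG2 reference.

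Other matrix genes moved in Huh7 alone or in opposite directions. TAGLN, an actin-binding protein of contractile cells, fell in HepG2 from 1639 to 1066 and rose in Huh7 from 1719 to 4000.3, a difference of -1.84 (SE 0.22, adjusted p = 3.45e-14). COL1A1, a chain of type I collagen, fell in HepG2 from 851 to 594 and rose in Huh7 from 15.3 to 78.6, a difference of -2.88 (SE 0.78, adjusted p = 0.00643). CNN1, another contractile protein, rose in Huh7 alone with 2.36 (SE 0.28), and HepG2 had -0.66 (SE 0.59). THBS1, which activates latent TGF-beta, rose in Huh7 alone with 1.27 (SE 0.15), and HepG2 had -0.17 (SE 0.29). The call for THBS1 was lost with both analogs, and that for CNN1 with MS7126N2. TGFB1, the ligand, rose in both, with 1.49 (SE 0.20) and 1.15 (SE 0.13), and its difference was 0.34 (SE 0.24, adjusted p = 0.485). Of 4 fibroblast and endothelial markers, which summed to 489 normalized counts in Huh7 DMSO and 473 with MS7126, PDGFRA rose in Huh7 from 105 to 269, 1.36 (SE 0.31), PECAM1 fell from 334 to 180.2, COL3A1 went from 44.4 to 21.1, and VWF was near 0 (5.55 and 2.19). In HepG2 only PECAM1 of the 4 was listed, at 41.1 and 25.6. Their part in the matrix result was not tested. In HepG2 C24, against the same DMSO libraries as MS7126, gave ANKRD1 -1.48 and CYR61 -0.88, where MS7126N1 gave 0.03 and -0.20 and MS7126N2 -0.46 and -0.25.

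The TEAD site GGAATG, on either strand, lay in 4 of 14 matched matrix members (CTGF, ANKRD1, THBS1 and SPARC) and in 12.1% of all promoters. The promoter of CTGF held 3 matches, of which the neighbouring pair is shown at chr6:131951431-131951516, minus strand, beside ANKRD1 at chr10:90921170-90921255, minus strand, and THBS1 at chr15:39580993-39581078, plus strand, all with a called difference below 0 over DMSO.
CTGF: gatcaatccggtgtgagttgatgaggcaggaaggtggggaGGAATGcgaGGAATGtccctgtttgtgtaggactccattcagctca
ANKRD1: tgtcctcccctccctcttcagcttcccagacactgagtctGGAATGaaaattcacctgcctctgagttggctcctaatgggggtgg
THBS1: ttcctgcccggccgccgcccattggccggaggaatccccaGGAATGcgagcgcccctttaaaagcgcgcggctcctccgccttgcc
In each window the capitals mark the site on the strand of the gene.

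**Figure D4:**
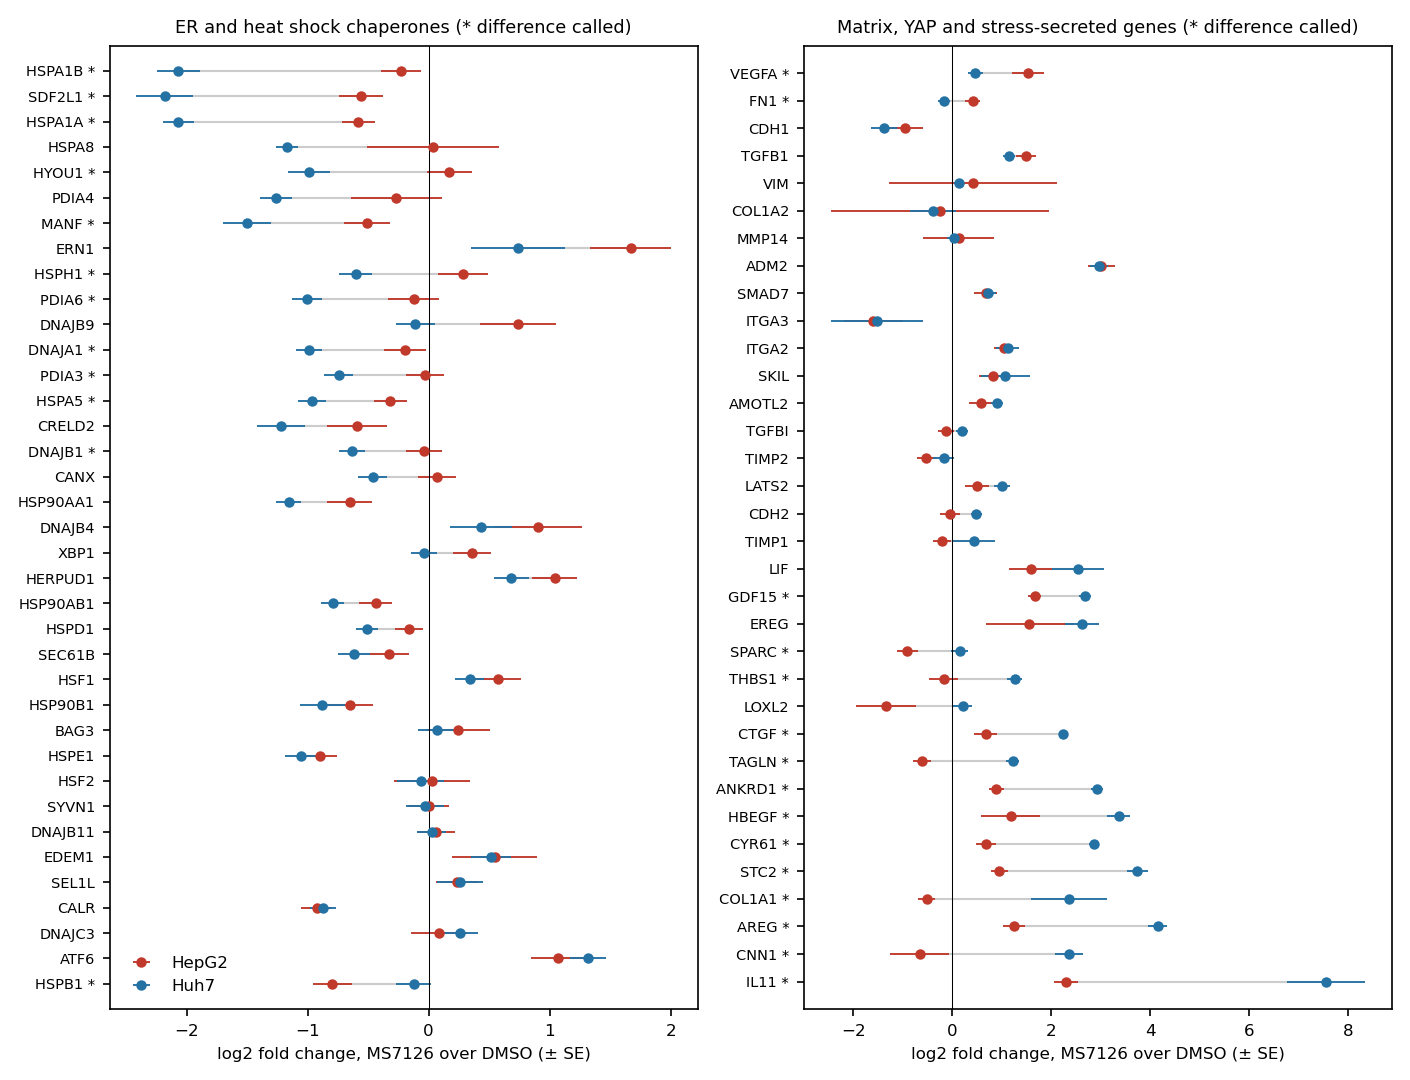
Log2 fold changes of MS7126 over DMSO with their SE, HepG2 in red and Huh7 in blue, for ER and heat shock chaperones (left) and for matrix, YAP and stress-secreted genes (right), ordered by difference. Asterisks mark a called difference; HSPA1A stands at -0.58 in HepG2 and -2.07 in Huh7, and CYR61 at 0.68 and 2.86.

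Secreted stress and cytokine genes leaned the same way as the matrix genes. Of 9 stress-secreted factors, 7 rose in HepG2 and 9 in Huh7, with medians of 1.56 and 2.97. The difference was called below 0 for 5 and above 0 for 1 (66.7%, beside 7.54% of all genes). AREG, a ligand of the EGF receptor, went from 117 to 2086 in Huh7 and from 1065 to 2535 in HepG2, log2 fold changes of 4.16 (SE 0.19) and 1.25 (SE 0.22). HBEGF, another ligand of that receptor, rose in Huh7 with 3.37 (SE 0.24) and had 1.18 (SE 0.60, adjusted p = 0.193) in HepG2. VEGFA, the angiogenic factor, was the exception, with 1.52 (SE 0.32) in HepG2 and 0.46 (SE 0.15) in Huh7, but its difference of 1.06 (SE 0.36, adjusted p = 0.0413) was lost under centring and without a filter on the mean (adjusted p = 0.052 and 0.051). Of 14 NF-kB and cytokine genes, 2 rose in HepG2 and 11 in Huh7. All 14 differences were negative, 4 of them called (28.6%, beside 7.54% of all genes). CXCL8, which attracts neutrophils, went from 3174 to 12662 in Huh7, 2.00 (SE 0.11, adjusted p = 2.23e-69), and from 112 to 68.2 in HepG2, -0.72 (SE 0.72, adjusted p = 0.603). The calls for HBEGF, VEGFA and CXCL8 were lost with both analogs as the HepG2 reference. IL11, a cytokine tied to fibrosis, rose in both, from 141 to 692 in HepG2 and from 1.64 to 309.6 in Huh7. The DMSO level in Huh7 was under 3 normalized counts, so the size of its fold change there is uncertain. EDN1 (endothelin 1), a vasoconstrictor peptide, rose in Huh7 alone, from 399 to 2929.5, 2.87 (SE 0.14), and went from 131 to 78.9 in HepG2.

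Genes of differentiated liver functions differed between the lines in both directions, also within single lists. Of 13 acute phase proteins, 10 fell in HepG2 and 8 in Huh7. All 6 called differences (46.2%, beside 7.54% of all genes) were below 0, a deeper fall in HepG2. FGA, a fibrinogen chain, fell in HepG2 from 14381 to 5140.2 with -1.48 (SE 0.12), and Huh7 had -0.26 (SE 0.13, adjusted p = 0.102). HP (haptoglobin), which binds free hemoglobin, fell in both, with -3.62 (SE 0.16) and -1.99 (SE 0.35). APOC3, an inhibitor of triglyceride clearance, fell in HepG2 from 2863 to 663, -2.11 (SE 0.17), and had -0.37 (SE 0.16, adjusted p = 0.05) in Huh7, where the adjusted p lay at the threshold. MTTP, which loads lipid onto apolipoprotein B, fell in HepG2 alone with -1.07 (SE 0.19), and Huh7 had -0.08 (SE 0.11). Of 15 apolipoprotein and lipoprotein assembly genes, the difference was called below 0 for 3 and above 0 for 1, SCARB1, with 0.83. That is 26.7%, beside 7.54% of all genes. With MS7126N2 as the HepG2 reference all 6 acute phase calls were lost (FGA, HP, SAA4, FGB, HPX and SERPINA3). Those for FGB, HPX and SERPINA3 were lost with MS7126N1 too. The calls for MTTP and SCARB1 were lost with MS7126N2. The plasma carriers AMBP and AHSG moved in opposite directions: AMBP rose in HepG2 with 0.51 (SE 0.15) and fell in Huh7 with -0.55 (SE 0.14), and AHSG had 0.59 (SE 0.16) and -0.35 (SE 0.11). The AHSG call was also lost with MS7126N2. Of the 16 plasma carriers compared, the difference was called above 0 for these 2 and below 0 for 2, APOH (-0.77) and VTN (-0.68). That is 25%, beside 7.54% of all genes. The calls for APOH and VTN were lost with both analogs.

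Amino acid breakdown went the other way from the acute phase proteins. Of 17 urea cycle and amino acid genes, 6 rose and 6 fell in HepG2, and 2 rose and 8 fell in Huh7. The difference was called above 0 for 7 and below 0 for 1 (47.1%, beside 7.54% of all genes). GOT1, the cytosolic aspartate aminotransferase, rose in HepG2 alone from 567 to 1481, 1.38 (SE 0.16), and Huh7 had 0.01 (SE 0.14). TAT, which starts tyrosine breakdown, rose in HepG2 from 23 to 197 with 3.10 (SE 0.48), and Huh7 had 0.48 (SE 0.44). ASL, the urea cycle lyase, rose in HepG2 from 77.9 to 585, 2.91 (SE 0.46), and fell in Huh7 from 1171 to 581, -1.01 (SE 0.34). In HepG2 ASL also had 2.32 (SE 0.27) with C24 and 1.91 (SE 0.58) with MS7126N1, the latter not called, and 0.30 (SE 0.35) with MS7126N2. With MS7126N1 as the HepG2 reference the difference of ASL was 2.01 (adjusted p = 0.19), and with MS7126N2 it was 3.62 and called. Of the 7 calls above 0, 1 was made with MS7126N1 and 3 with MS7126N2, and that for TAT was lost with both.

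Among transcription factors of hepatocytes, FOXA3 rose in HepG2 with 0.84 (SE 0.21) and fell in Huh7 with -0.40 (SE 0.17), a difference of 1.24 (SE 0.27, adjusted p = 0.000282). CEBPA, a factor of mature hepatocytes, fell in Huh7 alone with -0.97 (SE 0.10), and HepG2 had 0.07 (SE 0.21). PROX1, a factor of liver progenitors, rose in Huh7 alone with 1.07 (SE 0.18), and HepG2 had -0.23 (SE 0.20). KRT19 (chr17:41523617-41528308), a keratin of bile ducts and liver progenitors, fell in HepG2 from 10778 to 5663, -0.93 (SE 0.12, adjusted p = 2.4e-12), and rose in Huh7 from 1021 to 3373, 1.72 (SE 0.13, adjusted p = 6.59e-36). Its difference was -2.65 (SE 0.18, adjusted p = 9.15e-45). The sum of 4 biliary markers, which KRT19 leads in HepG2, went from 15505 to 9595 normalized counts in HepG2 and from 4680.5 to 8147 in Huh7, while KRT7 was near 0 in Huh7 (1.37 and 4.76). SOX9, another progenitor factor, rose in Huh7 alone with 0.44 (SE 0.11), and HepG2 had -0.26 (SE 0.17). Of 13 biliary and progenitor markers compared, the difference was called below 0 for 3 and above 0 for 1, GPC3, with 0.997. That is 30.8%, beside 7.54% of all genes, and by sign alone 6 of the 13 lay above 0. The calls for FOXA3, CEBPA, SOX9 and GPC3 were lost with both analogs as the HepG2 reference. With MS7126N1 their differences were 1.17, 1.05, -0.71 and 1.03, and with MS7126N2 they were 0.82, 0.83, -0.60 and 0.88.

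The genes called in opposite directions with the largest differences included several outside these programs. PLA2G12A, a secreted phospholipase, rose in HepG2 from 71 to 800.3, 3.50 (SE 0.30), and fell in Huh7 from 601 to 293, -1.03 (SE 0.29). It also rose in HepG2 with MS7126N1, by 2.31 (SE 0.37) against the same DMSO libraries, and had 2.45 (SE 0.30) with C24, while MS7126N2 gave 0.64 (SE 0.35), values given side by side because those comparisons share controls. EHBP1L1, a membrane trafficking adaptor, had 1.58 (SE 0.48) and -2.11 (SE 0.43), where MS7126N1 gave 0.38 and MS7126N2 0.34. LMO4, a transcriptional adaptor, rose in HepG2 from 578 to 1301 and fell in Huh7 from 2000.0 to 1044, a difference of 2.11 (SE 0.24, adjusted p = 1.93e-15). Also higher in HepG2 and lower in Huh7 were STEAP1, MOCOS, MID1IP1 and RFLNB, with differences of 2.80, 2.38, 1.84 and 1.64. The calls for STEAP1, MOCOS and MID1IP1 were lost with MS7126N2 as the HepG2 reference.

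In the other direction UBD (FAT10), a ubiquitin-like modifier, fell in HepG2 from 682 to 81.4, -3.07 (SE 0.26, adjusted p = 1.54e-30), and rose in Huh7 from 2511 to 4002, 0.67 (SE 0.15, adjusted p = 5.24e-05). The difference was -3.74 (SE 0.30, adjusted p = 8.23e-33), and MS7126N1 gave UBD -0.64 (SE 0.24) in HepG2, not called, while MS7126N2 gave -1.97 (SE 0.24, adjusted p = 2.3e-13). The UBD difference was -1.77 with MS7126N2 as the reference, still called. LAMA5, a laminin chain of basement membranes, fell in HepG2 from 2579 to 1059, -1.28 (SE 0.15), and rose in Huh7 with 0.43 (SE 0.13). DIAPH3, an actin nucleator, had -0.75 (SE 0.25) and 0.93 (SE 0.16). TUBA1A (a tubulin with near-identical relatives), the pseudogene ABCC6P1, POU2F1, ACSM3 and TIA1 had differences of -2.18, -1.92, -1.75, -1.64 and -1.59. The ABCC6P1 value is uncertain because its reads can also match ABCC6. The calls for DIAPH3 and TIA1 were lost with MS7126N2.

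**Figure D5:**
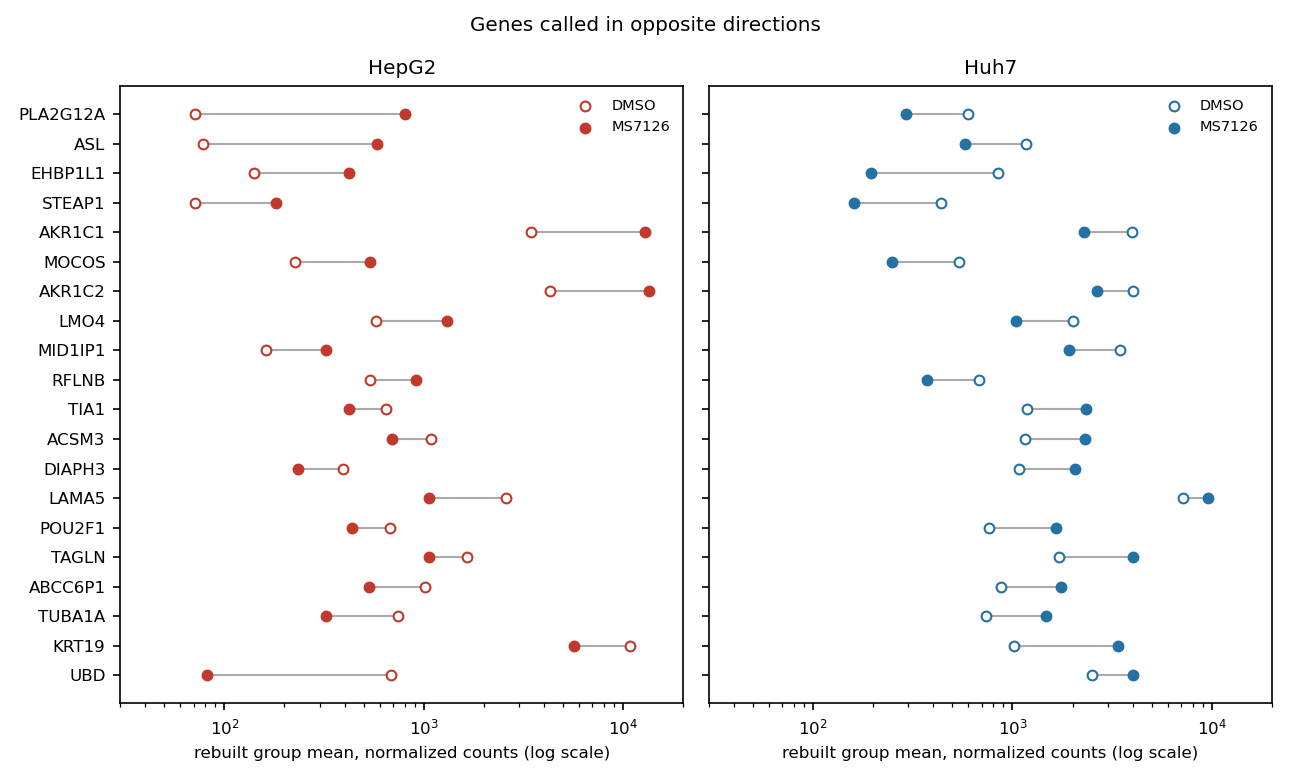
Rebuilt group means in normalized counts (log scale) for DMSO (open) and MS7126 (filled) in HepG2 and Huh7, for the 20 named genes called in opposite directions, ordered by difference. The upper 10 genes move right in HepG2 and left in Huh7, and the lower 10 move left in HepG2 and right in Huh7; levels are on each table's own scale.

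Of the genes that responded in HepG2 alone, AQP3, a water and glycerol channel, rose the most, from 23.3 to 467, 4.32 (SE 0.35), and Huh7 had 0.36 (SE 0.21, adjusted p = 0.187). The inhibitor C24 gave AQP3 0.98, MS7126N1 0.56 and MS7126N2 0.45 against the same DMSO libraries. SNHG7, a noncoding RNA, had 2.27 (SE 0.66) in HepG2 and 0.16 (SE 0.23) in Huh7. Among those lower in HepG2 alone, PRAP1 fell with -1.86 (SE 0.25), and CENPE, a mitotic kinesin, with -1.89 (SE 0.19). RGPD5 had -4.10 (SE 0.30), which is uncertain because the RGPD family consists of near-identical copies, and MS7126N2 gave -4.60 (SE 0.31) against the same DMSO libraries. PIGA and PER1, of GPI anchor synthesis and the circadian clock, had -4.10 (SE 0.45) and -3.83 (SE 0.47), but MS7126N1 gave -3.58 (SE 0.37) and -4.93 (SE 0.42) against the same DMSO libraries, both called. MS7126N2 gave -1.27 (SE 0.92) and -4.43 (SE 0.43), the latter called. With MS7126N1 as the reference, their differences from Huh7 were -0.04 and 1.18, and ATG2B and PDE8A, higher in HepG2 alone over DMSO, had -0.031 and 0.59. With MS7126N2 as the reference RGPD5 had 1.57 and PER1 0.67. The calls for these 5 and SNHG7 were lost with both analogs, and those for PRAP1 and CENPE with MS7126N2.

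In Huh7 alone, GLRX (glutaredoxin), which removes glutathione from proteins, fell from 294 to 21.3, -3.79 (SE 0.37), and went from 564 to 519 in HepG2. Its difference was 3.67 (SE 0.43, adjusted p = 8.68e-15). ZDHHC8, a palmitoyltransferase, and ITPKA, an inositol phosphate kinase, fell in Huh7 with -3.12 (SE 0.34) and -2.45 (SE 0.23). HAUS4, D2HGDH and C11orf95 fell in Huh7 with -2.43 (SE 0.23), -2.22 (SE 0.67) and -2.20 (SE 0.21). CDC42EP2, an effector of the actin regulator CDC42, rose in Huh7 from 88.9 to 802, 3.17 (SE 0.24), and had 0.54 (SE 0.26, adjusted p = 0.16) in HepG2. SYNPO, an actin-associated protein, rose from 1422 to 9344, 2.72 (SE 0.16). FBXW4, WDR35 and PPP1R13L had 2.64 (SE 0.29), 2.60 (SE 0.23) and 2.49 (SE 0.29) in Huh7. With MS7126N1 as the HepG2 reference the calls for HAUS4, C11orf95, PPP1R13L, D2HGDH and WDR35 were lost, the last pair also with MS7126N2.

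Cell division genes fell in both lines, and the share with a called difference was near that of all genes. By sign, however, mitosis genes leaned to a deeper fall in HepG2. Of 40 DNA replication genes, 22 fell in HepG2 and 31 in Huh7, with medians of -0.84 and -0.83, and the difference was called for 3 (7.50%, beside 7.54% of all genes). Of 36 mitosis genes, 24 and 25 fell, with medians of -0.81 and -0.53, and the difference was called for 2 (5.56%), CENPE and ANLN. By sign alone it was above 0 in 5 of the 36, with a median of -0.35 beside 0.02 over all genes. At an unadjusted p under 0.05 by the normal test were 11 of the 36, beside 2510 of all 13150 genes. CDKN2B, an inhibitor of CDK4 and CDK6, rose in Huh7 alone from 499 to 2552, 2.35 (SE 0.18), and HepG2 had 0.18 (SE 0.38). CDKN2C, a related inhibitor, fell in both and further in Huh7, with -1.17 (SE 0.33) and -2.74 (SE 0.22). BTG2, an antiproliferative protein, rose in Huh7 alone with 1.28 (SE 0.19), and HepG2 had -0.72 (SE 0.38, adjusted p = 0.213). The calls for CDKN2B and BTG2 were lost with MS7126N2 as the HepG2 reference, and those for CDKN2C and ANLN with both analogs. CDKN1A (p21), a CDK inhibitor, rose in both, with 1.21 (SE 0.17) and 1.09 (SE 0.34), and its difference was 0.12 (SE 0.37, adjusted p = 0.939).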

How the data were processed

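RNA-seq comparisons of MS7126 with DMSO were taken for HepG2 and Huh7, 2 libraries in each of 4 groups, grouped by the sample labels. STAR 2.4.2, Salmon and the build GRCh38 are named in the submitters' processing notes. Strand, and which library was made with TruSeq or NEBNext, were not found in the labels. Per the file headers the authors' deposited tables follow the DESeq2 layout. In them the authors gave each gene a mean normalized signal, its log2 fold change with SE, a score (their ratio), a p-value, and that p-value adjusted.

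The difference between lines was HepG2 minus Huh7 log2 fold change, its SE the root of the summed squared SEs, which is sound because the comparisons share no library. A two-sided normal test was adjusted by Benjamini-Hochberg over 13150 genes (SciPy 1.17.1, pandas 2.3.3, Python 3.11.15), and the step was tested on simulated data. Calls used an adjusted p under 0.05; 1008 compared genes had no adjusted p in HepG2 and counted as not called there. Group levels were rebuilt as DMSO = 2 x mean / (1 + 2 to the fold change), assuming groups of equal size. Promoter letters came from RefSeq, gene positions from GENCODE 29.

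The members and the 49 gene lists were chosen with earlier results of these data known. Genes named by rule were EZH2 and SREBF2; where both tables gave an SE under 1 and a mean not below 100 normalized counts, the 10 largest differences each way among genes in opposite directions, the 6 highest and 6 lowest of each line alone, 4 each way among genes moving alike by different amounts; and from each list up to 4 members, ranked by the adjusted p of the difference, for which these limits were not applied (154 of the 165 names met the limit on the mean). Other named genes (such as GCLM, NQO1, TXNRD1, GCLC, CTGF, COL1A1, CNN1 and MANF) are list members chosen after their values were seen. Alternatives varied the filter, centring, the test's distribution, the SEs, the threshold, a minimum size and the HepG2 reference. Values per library of these groups were not analysed here, so no library could be left out. A few genes and a gene list are not reported here; such genes count in the totals of the lists that hold them.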

Additional observations from a re-analysis of the deposited data

Results flagged for a closer look

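The 2 lines differed in their response to the same compound for 992 genes by the normal test of the difference, and 67 genes were called in opposite directions. Among those of the 67 for which both tables gave an SE under 1 and a mean not below 100 normalized counts, the larger differences were higher in HepG2 and lower in Huh7 for PLA2G12A (4.53 on the log2 scale), ASL (3.92), EHBP1L1 (3.69), STEAP1 (2.80), AKR1C1 (2.69), MOCOS (2.38), AKR1C2 (2.27), LMO4 (2.11), MID1IP1 (1.84) and RFLNB (1.64). They were lower in HepG2 and higher in Huh7 for UBD (-3.74), KRT19 (-2.65), TUBA1A (-2.18), ABCC6P1 (-1.92), TAGLN (-1.84), POU2F1 (-1.75), LAMA5 (-1.71), DIAPH3 (-1.69), ACSM3 (-1.64) and TIA1 (-1.59). Each of these genes was singled out because its effect under 1 contrast differed between 2 cell lines by a test of the difference itself. Line, medium and time cannot be told apart in any of them.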

How the results depend on the processing

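Over the 165 named genes, the direction of the difference held under every alternative except for ATG2B (-0.031) and PER1 (1.18) with MS7126N1, and RGPD5 (1.57), PER1 (0.67) and TRIB3 (-0.014) with MS7126N2, in place of DMSO as the HepG2 reference. Those references, and the restriction to genes with an adjusted p in both tables, were chosen after seeing the data; the analog references ignore the covariance from shared DMSO libraries, add the error of another table, and left 87 (MS7126N1) and 62 (MS7126N2) of the 165 names on their side of the threshold. The 992 differences (535 above 0, 457 below 0), 164 genes of HepG2 alone, 593 of Huh7 alone and 67 in opposite directions became 400 (188 and 212), 41, 235 and 50 with MS7126N1, and 212 (110 and 102), 15, 107 and 31 with MS7126N2. They became 544 (278 and 266), 99, 329 and 27 at an adjusted p under 0.01, and 147 (71 and 76), 22, 59 and 35 when the difference was tested against 0.5 on the log2 scale. With a t distribution on 2 degrees of freedom per table all 6 counts were 0, with 935 genes at an unadjusted p under 0.05 against 2510 by the normal test. That distribution has wider tails by construction. Other filters, centring and raised SEs left these counts within 1.5 times. No paired analysis was possible because values per library of these groups were not analysed here, and the planned fits without each replicate and with a replicate block were not run. The larger SE in HepG2 limits which responses could be called there.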

Other observations

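Several other gene groups, chosen with earlier results known and with values from the authors' deposited tables, also held called differences over DMSO. Of 31 proteasome subunits, 15 fell in Huh7 and 3 rose in HepG2, where 18.6% and 7.05% of all genes did so. All 6 called differences (19.4%, beside 7.54% of all genes) were above 0. PSMD8, of the regulatory cap, rose in HepG2 with a log2 fold change of 0.74 (SE 0.17) and had -0.14 (SE 0.10) in Huh7. The count of 6 was 3 after centring or with raised SEs, and with MS7126N1 as the HepG2 reference 0 and with MS7126N2 1 were called by the normal test. Of 28 lysosome and autophagy genes, the difference was called above 0 for 5 and below 0 for 1 (21.4%, beside 7.54% of all genes). By sign alone it was above 0 in 23. MAP1LC3B, which coats autophagosomes, rose in both lines, with 1.78 (SE 0.19) in HepG2 and 0.82 (SE 0.11) in Huh7. PSAP, a lysosomal activator protein, fell in Huh7 alone with -0.68 (SE 0.13) and had 0.35 (SE 0.19) in HepG2. The call for PSAP was lost with both analogs, and that for MAP1LC3B with MS7126N2.

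Some genes of glucose handling also had a called difference over DMSO. Of 28 hypoxia and glycolysis genes, 15 fell in Huh7 and 2 in HepG2, and all 4 called differences (14.3%, beside 7.54% of all genes) were above 0. With the analogs as the HepG2 reference the calls for SLC2A1, PFKFB3 and VEGFA were lost with both and that for ENO1 with MS7126N2, and VEGFA also lost it under centring, without a filter and with raised SEs. SLC2A1, the glucose transporter GLUT1, rose in HepG2 alone with 1.29 (SE 0.25), and Huh7 had -0.02 (SE 0.18). TXNIP, which restrains glucose uptake, rose in both and more in Huh7, with 1.96 (SE 0.27) in HepG2 and 4.21 (SE 0.21) in Huh7. FOXO1, a driver of gluconeogenesis, rose in Huh7 alone with 1.56 (SE 0.19), and HepG2 had 0.21 (SE 0.23). IRS1 and INSR, of insulin signalling, rose in Huh7 alone with 1.22 (SE 0.11) and 0.64 (SE 0.19). Of the aryl hydrocarbon receptor genes, AHR itself and its target CYP1A1 rose in both lines and more in Huh7: CYP1A1 had 1.64 (SE 0.45) in HepG2 and 3.12 (SE 0.12) in Huh7. NKD1, a WNT pathway inhibitor, had 0.51 (SE 0.18) in HepG2 and 3.72 (SE 0.59) in Huh7, where its DMSO level was 8.12 normalized counts. Of these genes, the calls for IRS1, INSR and CYP1A1 were lost with both analogs as the HepG2 reference, and those for FOXO1 and AHR with MS7126N2.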
